A study of Rattus norvegicus with 8 samples.

Results

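Inpp5d, Cd80, M1ap and Cd81 are 4 of the 24059 genes in a table of RNA sequencing counts from rat germ cells. They were picked by symbol because their counts were higher in every doxorubicin library than in every control library, although none is a usual marker of spermatogonia, the dividing germ cells of the young testis. The difference between the groups therefore chose these genes, and it is given here as a description without a test. Doxorubicin, an anthracycline used against cancer, poisons topoisomerase II and so causes double-strand DNA breaks. The treated group held germ cells from 4 rats (numbers 2, 3, 6 and 8) given 5 mg/kg doxorubicin in vivo on postnatal day 6, and the control group held germ cells from 4 rats (numbers 1, 4, 5 and 9) given vehicle. All 8 animals were prepubertal transgenic Sprague-Dawley rats carrying GCS-EGFP, and GFP-positive testis cells were isolated 24 h after the injection, so both groups share the transgene and the sort on GFP. Each library came from a separate rat, and polyA RNA was sequenced.

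Library totals ran from 41665785 to 58871101 estimated counts after doxorubicin and from 41253848 to 57700969 in controls. The share of counts from mitochondrial genes was 7.37% to 9.23% after doxorubicin, highest in rat 2, and 7.47% to 8.67% in controls (two-sided exact permutation p = 0.971, 0.971 after Benjamini-Hochberg adjustment over 4 library measures). The germ cell label matched its markers: the RNA helicase Ddx4 stood at 390.0 ± 5.64 CPM (counts scaled to library size by the TMM method) after doxorubicin and 377.1 ± 23.9 CPM in controls (SD, n = 4 each), and the 18 listed germ cell genes summed to 3459 to 3689 CPM after doxorubicin and 3467 to 3559 CPM in controls.

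The 4 genes belong to different systems. Inpp5d encodes SHIP1, a lipid phosphatase of blood cells that removes a phosphate from the product of PI3K and so limits Akt signalling downstream of immune receptors. Cd80 encodes a ligand of the B7 family, which antigen-presenting cells display to the T cell receptors CD28 and CTLA4. M1ap is known from mouse and human for its need in male meiosis, where in mouse its protein works with the crossover factors SHOC1 and TEX11. Cd81 encodes a tetraspanin, a membrane protein with 4 spans that organises partners such as integrins.

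The promoters are shown because the 4 genes differ in base composition and in the motifs their promoters hold. Each line gives the 250 bases before the start site, 5′ to 3′ on the strand of the gene, from RefSeq on GRCr8, with Inpp5d at chr9:95735283-95735532 (plus strand), Cd80 at chr11:75797541-75797790 (minus strand), M1ap at chr4:117003381-117003630 (plus strand) and Cd81 at chr1:207665047-207665296 (plus strand). Capitals mark the paired cores of the p53 response element in Inpp5d, the best match to the whole p53 consensus in Cd80, and GGGCGG in M1ap and Cd81.
Inpp5d: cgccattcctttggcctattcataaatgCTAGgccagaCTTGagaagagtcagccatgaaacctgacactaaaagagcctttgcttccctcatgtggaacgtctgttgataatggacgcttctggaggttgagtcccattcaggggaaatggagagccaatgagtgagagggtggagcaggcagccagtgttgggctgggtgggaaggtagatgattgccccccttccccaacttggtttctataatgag
Cd80: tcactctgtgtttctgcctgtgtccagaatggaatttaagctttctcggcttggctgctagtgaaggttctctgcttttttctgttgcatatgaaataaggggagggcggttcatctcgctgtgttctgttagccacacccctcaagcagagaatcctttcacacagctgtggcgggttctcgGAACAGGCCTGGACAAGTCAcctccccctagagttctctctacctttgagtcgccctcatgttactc
M1ap: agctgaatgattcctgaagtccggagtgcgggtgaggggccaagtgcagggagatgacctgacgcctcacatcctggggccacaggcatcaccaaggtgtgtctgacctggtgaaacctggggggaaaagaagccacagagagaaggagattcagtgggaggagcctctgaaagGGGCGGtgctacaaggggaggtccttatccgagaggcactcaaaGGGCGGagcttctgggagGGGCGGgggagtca
Cd81: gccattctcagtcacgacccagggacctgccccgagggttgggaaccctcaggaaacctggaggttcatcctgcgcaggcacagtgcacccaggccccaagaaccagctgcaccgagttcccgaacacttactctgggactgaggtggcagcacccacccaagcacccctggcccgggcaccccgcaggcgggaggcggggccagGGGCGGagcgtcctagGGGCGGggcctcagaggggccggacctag

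The Cd81 and M1ap promoters were richer in G and C (69.2% and 60.0%) than those of Inpp5d and Cd80 (50.8% and 50.4%), where the median over 33469 RefSeq promoters was 51.2%. The Cd81 promoter held 2 copies of GGGCGG, M1ap 3, Cd80 1 and Inpp5d 0, on the gene's strand in each case, and 33.1% of all promoters held the motif on either strand within the 300 bases from 250 before to 50 after the start. The 20-base stretch in capitals in Cd80 matched the p53 consensus at 18 of 20 positions, and 0.872% of all promoters held a stretch with as few mismatches. Of 32 genes of a p53 target list with a promoter in the RefSeq table, 5 held such a stretch (Aen, Ccng1, Cdkn1a, Ckap2 and Pidd1). The best match in the other RefSeq start of Cd80 had 16 of 20 positions, in Inpp5d and Cd81 15 and in M1ap 14, and 98.6% of all promoters reached 14. The paired cores alone occurred in Inpp5d and in none of the other 3 genes' windows, against 8.05% of all promoters. CATG, a core of that element, stood at 2 sites in Inpp5d, 1 at the printed Cd80 start, and 0 in M1ap and Cd81, against 62.6% of all promoters. TATAAA occurred in the Cd81 window, just after the start site, and in none of the other 3 genes' windows (14.2% of promoters). GGAA occurred in all of them (95.8% of promoters). No overlap between motifs was removed. A match of letters is a description of the window and no evidence of binding.

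Inpp5d (ENSRNOG00000017020.7) had the widest difference of the 4. Its level was 47.4, 21.5, 23.9 and 27.0 CPM in doxorubicin rats 2, 3, 6 and 8, against 5.93, 4.18, 5.12 and 5.80 CPM in control rats 1, 4, 5 and 9. The lowest treated library stood 3.63-fold above the highest control library, and rat 2 was the highest of the treated rats. The means were 30.0 ± 11.8 CPM after doxorubicin and 5.26 ± 0.80 CPM in controls (SD, n = 4 each), a fitted log2 fold change of 2.52 ± 0.28 (SE). The 4 control libraries carried 236 to 337 counts each, so Inpp5d transcripts were measured in vehicle-treated cells too.

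Genes around SHIP1 in the same pathway gave no call. Over the phosphoinositide phosphatases, PI3K and Akt genes, and SHIP1 adaptors and inhibitory receptors, 46 genes were tested and 0 passed edgeR's quasi-likelihood test over all genes in either direction, beside 0.106% of all tested genes called higher and 0.00589% called lower. An unadjusted p under 0.05 was found for 4 of the 46 on the higher side and 1 on the lower side, beside 4.19% and 2.56% of all tested genes. DESeq2 called 0 of them, beside 0.899% of all its tested genes called higher and 0.0622% called lower. Their median log2 fold change was 0.01, against -0.0047 for all 16976 genes tested. Inppl1, which encodes the related phosphatase SHIP2, stood at 118.1 ± 7.87 CPM after doxorubicin and 114.6 ± 7.62 CPM in controls (SD, n = 4 each). The log2 fold change of Inppl1 had a 95% interval from -0.08 to 0.17. The kinase Akt1 had a log2 fold change of -0.07 ± 0.03 (SE, edgeR adjusted p = 0.641), and the transcription factor Foxo1 one of 0.01 ± 0.04. The Akt1 libraries did not overlap between the groups. Mtmr2 and Inpp5f, phosphatases of other phosphoinositides, had 0.01 ± 0.04 and 0.01 ± 0.05. The adaptors Gab1 and Grb2 and the phosphatase Ptpn11 had 0.11 ± 0.05, -0.03 ± 0.04 and -0.05 ± 0.03 (SE, edgeR adjusted p from 0.740 to 0.961).

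Cd80 (ENSRNOG00000001527.6) was highest in treated rat 2 and similar in the other 3. It stood at 18.6, 9.00, 8.30 and 8.03 CPM in doxorubicin rats 2, 3, 6 and 8, against 2.27, 2.16, 2.65 and 2.01 CPM in control rats 1, 4, 5 and 9. The groups were apart by 3.03-fold at their nearest libraries. Mean levels were 10.99 ± 5.11 CPM after doxorubicin and 2.27 ± 0.27 CPM in controls (SD, n = 4 each), a fitted log2 fold change of 2.27 ± 0.30 (SE). Without rat 2 the other 3 treated libraries averaged 8.44 ± 0.50 CPM, with a coefficient of variation of 5.94%, close to the 4.86% that counting alone gives at their depth. The deposited Cd80 values were not whole numbers in 4 of 8 libraries, and what the authors' counting did there was not tested.

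The other B7 genes and the receptors of Cd80 were scarce or gave no call. Cd86, the second ligand of CD28 and CTLA4, had 23, 12, 12 and 18 counts in the treated rats and 28, 8, 25 and 9 counts in the controls, or 0.307 ± 0.076 CPM after doxorubicin and 0.331 ± 0.179 CPM in controls (SD, n = 4 each; edgeR adjusted p = 0.983). The Cd86 groups overlapped throughout. Cd28 had 1 to 10 counts in each treated library and 1 to 8 in each control library. Ctla4 had 2 counts in doxorubicin rat 2 and 0 in the other 7 libraries, where a 0 allows up to 0.0727 CPM in the smallest. Icoslg, Cd276 and Vsir, further B7 ligands, had log2 fold changes of -0.09 ± 0.09, 0.20 ± 0.09 and -0.19 ± 0.13 (SE, edgeR adjusted p from 0.693 to 0.935), and the receptor Icos one of 0.09 ± 0.08. Of the 7 B7 ligands and receptors tested, 0 passed edgeR (1 higher at an unadjusted p under 0.05, 0 with DESeq2). Over all tested genes, 0.106% passed edgeR higher, and 4.19% were higher at that unadjusted p.

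M1ap (ENSRNOG00000007288.8) was the scarcest of the 4 in reads. It measured 5.07, 1.95, 2.96 and 2.75 CPM in doxorubicin rats 2, 3, 6 and 8 (293, 108, 124 and 152 counts), against 0.545, 0.673, 0.777 and 0.671 CPM in control rats 1, 4, 5 and 9 (31, 38, 41 and 28 counts). The lowest treated library, rat 3, stood 2.51-fold above the highest control library. The means were 3.18 ± 1.33 CPM after doxorubicin and 0.667 ± 0.095 CPM in controls (SD, n = 4 each), a fitted log2 fold change of 2.26 ± 0.28 (SE). The control coefficient of variation of 14.2% was no wider than the counting error of 17.2% that these counts carry, so differences among the controls were not detectable at this depth.

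Other meiosis genes gave no call. Tex11, a crossover factor, stood at 43.7, 46.3, 49.1 and 44.2 CPM in doxorubicin rats 2, 3, 6 and 8, against 43.9, 47.1, 42.9 and 40.9 CPM in control rats 1, 4, 5 and 9. The Tex11 groups overlapped (log2 fold change 0.07 ± 0.06, SE, edgeR adjusted p = 0.913). Shoc1, its partner, stood at 14.4 ± 1.23 CPM after doxorubicin and 14.4 ± 0.91 CPM in controls (SD, n = 4 each), with a 95% interval of the log2 fold change from -0.17 to 0.17. The mismatch repair gene Mlh3, which acts at crossovers, had a log2 fold change of -0.03 ± 0.04, and the nuclear envelope gene Sun1 and the meiotic cohesin genes Stag3 and Smc1b had 0.01 ± 0.05, -0.04 ± 0.04 and -0.05 ± 0.04 (SE, edgeR adjusted p from 0.934 to 0.989). Over both meiosis lists, 49 genes were tested, 0 passed edgeR (1 higher and 2 lower at an unadjusted p under 0.05, 0 with DESeq2), and the median log2 fold change was -0.04. Among all tested genes, 0.106% passed edgeR higher, and 4.19% were higher and 2.56% lower at that unadjusted p.

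Cd81 (ENSRNOG00000020451.8) had the smallest difference of the 4. It stood at 9.10, 7.58, 6.22 and 5.56 CPM in doxorubicin rats 2, 3, 6 and 8, against 4.29, 3.58, 3.15 and 3.89 CPM in control rats 1, 4, 5 and 9. The groups did not overlap, but treated rat 8 was only 1.29-fold above control rat 1. The means were 7.11 ± 1.57 CPM after doxorubicin and 3.73 ± 0.48 CPM in controls (SD, n = 4 each), a fitted log2 fold change of 0.94 ± 0.16 (SE). None of the 8 deposited Cd81 values was a whole number, and what the authors' counting did there was not tested either.

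The other tetraspanins and the partners of Cd81 gave no call. Cd9, the tetraspanin most often found with CD81, stood at 217.2 ± 15.8 CPM after doxorubicin and 203.5 ± 25.4 CPM in controls (SD, n = 4 each; edgeR adjusted p = 0.934). Tspan3 and Tspan14 had log2 fold changes of 0.08 ± 0.04 and -0.06 ± 0.04 (SE). Ifitm3, an interferon-induced membrane protein, stood at 0.223 ± 0.129 CPM after doxorubicin and 0.245 ± 0.058 CPM in controls (SD, n = 4 each). Itga6, Itgb1 and Ptgfrn, which encode integrin chains and an immunoglobulin-type partner, had log2 fold changes of 0.04 ± 0.09, -0.02 ± 0.04 and 0.06 ± 0.06 (SE, edgeR adjusted p from 0.945 to 0.980). Of 39 tetraspanins and partners tested, 0 passed edgeR (2 higher and 2 lower at an unadjusted p under 0.05, 0 with DESeq2). Among all tested genes, 0.106% passed edgeR higher, and 4.19% were higher and 2.56% lower at that unadjusted p.

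**Figure D1:**
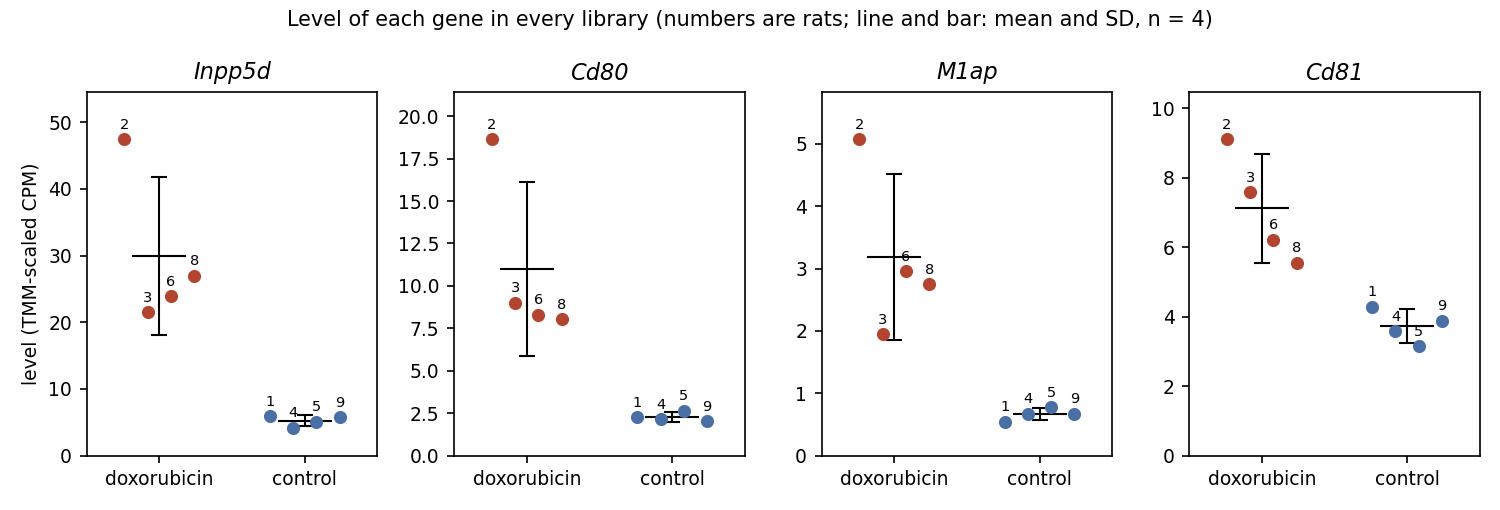
Level of Inpp5d, Cd80, M1ap and Cd81 in each library, in TMM-scaled CPM on linear axes from 0, with doxorubicin rats on the left and controls on the right of each panel; points are libraries with rat numbers, lines are means and bars are SD (n = 4). Every treated point lies above every control point, and rat 2 is the highest treated point in all 4 panels.

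**Figure D2:**
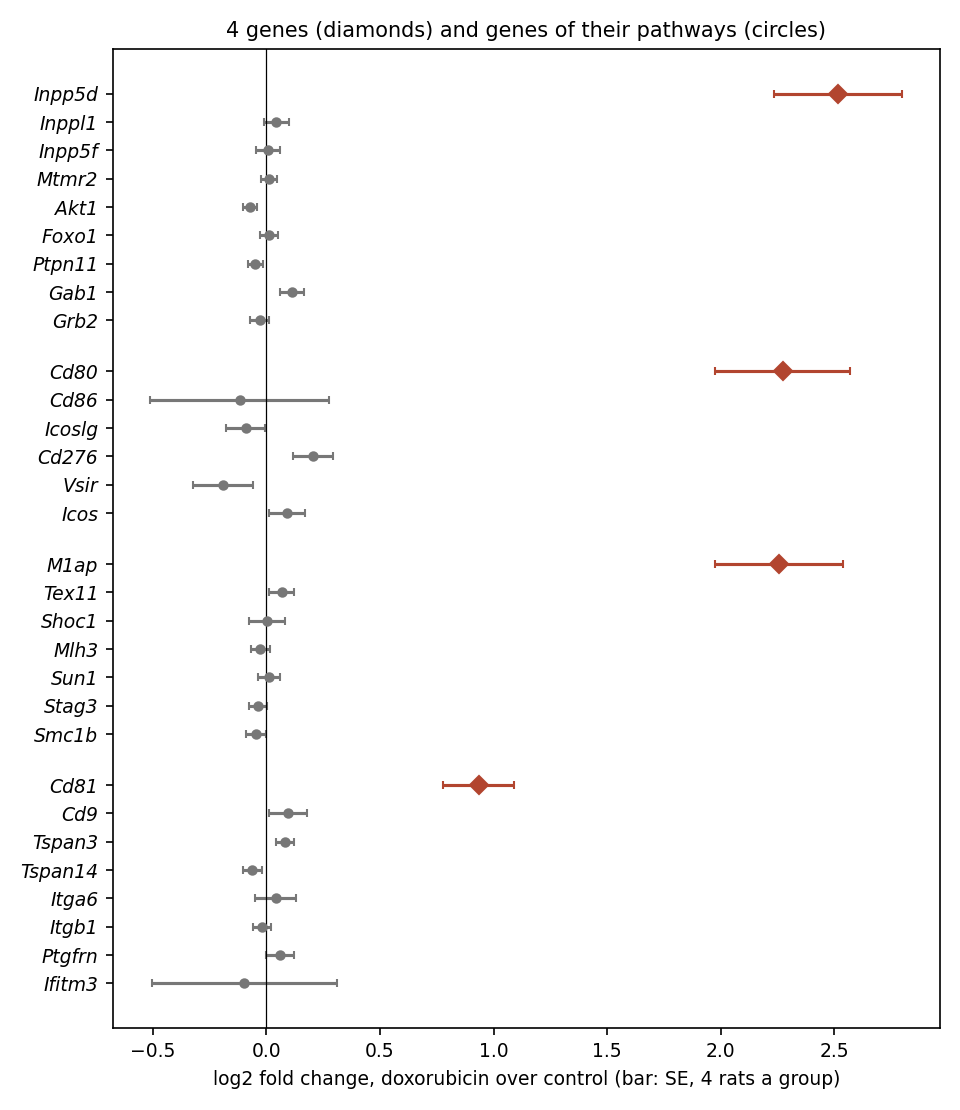
Log2 fold change of doxorubicin over control for the 4 genes (diamonds) and for named genes of their pathways (circles), with bars for the SE of the edgeR fit on 4 rats a group. The diamonds lie at 2.52, 2.27, 2.26 and 0.94, and the circles lie between -0.19 and 0.20. The 4 genes were picked for being higher in this contrast, so their distance from the circles is no test. The circles are a part of the lists, mostly genes of high level. All 141 pathway genes tested, without p53 targets, ran from -0.75 to 0.44.

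All 4 genes were among the 18 genes called higher by edgeR over the whole table (0.106% of 16976), and 2.77% of all tested genes were higher without overlap between the groups. The lack of overlap follows from how the genes were picked, and the calls come from the same contrast, so neither is a test of the 4 genes. The calls depended on the fit and on single rats: 0 of the 4 genes were called with limma-voom, without doxorubicin rat 8, or without any 1 of the 4 controls, and 1 was called without doxorubicin rat 6, 2 without doxorubicin rat 3 and all 4 without doxorubicin rat 2. Leaving out rat 2 lowered the ratio of group means to 4.59 for Inpp5d, 3.71 for Cd80, 3.83 for M1ap and 1.73 for Cd81, against 5.70, 4.83, 4.77 and 1.91 with it. Among rats 1 to 4 alone (doxorubicin 2 and 3, control 1 and 4) the ratio was 6.82 for Inpp5d, 6.24 for Cd80, 5.76 for M1ap and 2.12 for Cd81. Among rats 5 to 9 (doxorubicin 6 and 8, control 5 and 9) it was 4.66, 3.50, 3.94 and 1.67 in the same order. The labels do not say that rat numbers mark a batch.

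Rat 2 carried most of what the 4 genes shared within the treated group. It exceeded the mean of the other treated rats by 1.96-fold for Inpp5d, 2.21-fold for Cd80, 1.99-fold for M1ap and 1.41-fold for Cd81. Below it the order differed by gene. For Inpp5d it ran from rat 8 through rat 6 to rat 3, for M1ap from rat 6 through rat 8 to rat 3, and for both Cd80 and Cd81 from rat 3 through rat 6 to rat 8. Against the control mean, rat 3 stood at a log2 ratio of 1.55 for M1ap but 1.99 for Cd80, and rat 8 at 2.36 for Inpp5d but 0.58 for Cd81. In controls the highest rat was rat 1 for Inpp5d and Cd81, and rat 5 for Cd80 and M1ap.

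**Figure D3:**
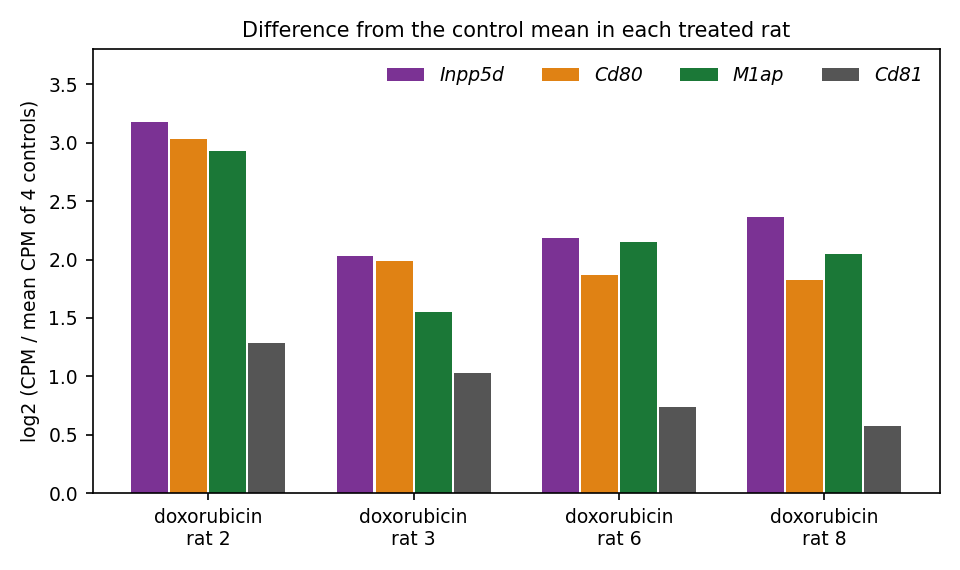
Log2 ratio of each gene's CPM to the mean of the 4 controls, by treated rat, as bars from 0. Rat 2 is highest for every gene (3.17 for Inpp5d, 3.03 for Cd80, 2.93 for M1ap and 1.29 for Cd81), and the order of the other 3 rats differs between genes.

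With the group means removed, log2 CPM of Inpp5d and Cd80 had a Pearson r of 0.80 over the 8 libraries (Spearman rho 0.62), Inpp5d and M1ap 0.76 (rho 0.43), and Cd80 and M1ap 0.80 (rho 0.64). Cd81 had 0.61 with Inpp5d (rho 0.43), 0.63 with Cd80 (rho 0.55) and 0.23 with M1ap (rho 0.00). These are descriptions of 8 libraries, and no p is given because the genes were chosen together. Without doxorubicin rat 2 the 6 values fell to -0.25, 0.07, -0.02, -0.01, -0.15 and -0.89 in the same order (7 libraries). Leaving out the pair of libraries farthest from the median of the first gene of each pair, rat 2 and 1 more, gave -0.11, -0.46, -0.83, 0.40, 0.77 and -0.81 (6 libraries). All 6 values were thus lower without rat 2, and none of them was above 0.075, while Cd81 with Cd80 and with Inpp5d had positive values once a further library was left out.

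**Figure D4:**
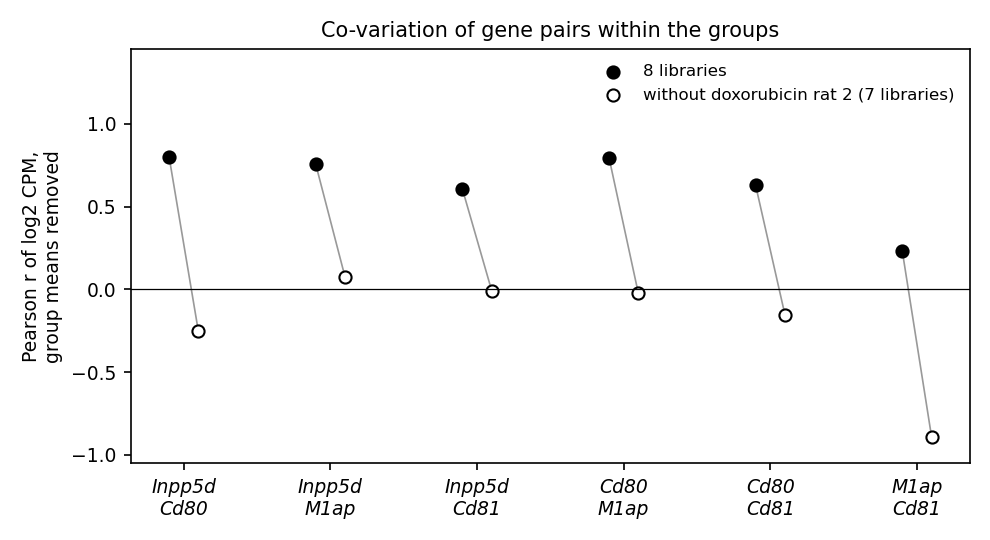
Pearson r of group-centred log2 CPM for the 6 gene pairs, over 8 libraries (filled points) and without doxorubicin rat 2 (open points, 7 libraries). The filled points lie between 0.23 and 0.80 and the open points between -0.89 and 0.07.

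The ratio between members in the same library does not depend on scaling. Cd80 had 3.51 ± 0.84 counts for each M1ap count after doxorubicin and 3.45 ± 0.51 in controls (SD, n = 4 each), so this pair kept about the same proportion in both groups. The ratio of Inpp5d to Cd80 counts was 2.80 ± 0.43 after doxorubicin and 2.34 ± 0.48 in controls, and that of Inpp5d to M1ap was 9.58 ± 1.22 after doxorubicin and 8.08 ± 2.15 in controls. The groups overlapped in all 3 ratios. Against Cd81 the ratios were set apart: Inpp5d counts were 2.84 to 5.21 for each Cd81 count after doxorubicin and 1.17 to 1.63 in controls.

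Markers of leukocytes were followed because Inpp5d and Cd80 are best known in those cells, and a sorted germ cell sample could hold a few of them. In bulk RNA, more cells of a type and more RNA per cell cannot be told apart. Ptprc, the CD45 antigen of all white blood cells, had 38, 37, 30 and 38 counts in doxorubicin rats 2, 3, 6 and 8, against 24, 39, 41 and 29 counts in control rats 1, 4, 5 and 9. That is 0.682 ± 0.025 CPM after doxorubicin and 0.646 ± 0.155 CPM in controls (SD, n = 4 each), with overlapping groups (edgeR adjusted p = 0.980). The macrophage receptor Csf1r stood at 0.902 ± 0.069 CPM after doxorubicin and 0.720 ± 0.111 CPM in controls (edgeR adjusted p = 0.815). Macrophage genes differed in level: C1qa, C1qb and C1qc had 0 to 4 counts in each library and Adgre1 0 or 1, in both groups, while Mrc1 had 745 to 1038 counts after doxorubicin and 673 to 1265 in controls. Ncr1, Klrd1, S100a8 and Fcer1a, which mark natural killer cells, granulocytes and mast cells, had 0 counts in all 8 libraries.

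Over 6 leukocyte lists together, 67 genes were tested and 0 passed edgeR (2 higher and 4 lower at an unadjusted p under 0.05, 0 with DESeq2), with a median log2 fold change of 0.03. Among all tested genes, 0.106% passed edgeR higher, and 4.19% were higher and 2.56% lower at that unadjusted p. Of the 67, 2 were higher without overlap between the groups and 5 lower, beside 2.77% and 1.95% of all tested genes. The 90 listed genes, some of them on more than one list, summed to 515.0, 465.3, 454.2 and 478.9 CPM in doxorubicin rats 2, 3, 6 and 8, and to 511.1, 459.0, 446.4 and 451.6 CPM in control rats 1, 4, 5 and 9. The summed groups overlapped, with rat 2 highest among the treated and rat 1 highest among the controls. The listed genes with the highest levels were Fcrla at 159.3 ± 9.53 CPM after doxorubicin and 149.4 ± 2.83 CPM in controls, and Csf3r at 70.8 ± 14.8 CPM after doxorubicin and 68.8 ± 19.1 CPM in controls (SD, n = 4 each). Fcrla and Csf3r made up a large part of the sums, and 38 of the 90 genes had a mean of at least 1 CPM. The sums could therefore hardly show a change in the scarcer markers. Spi1, the leukocyte transcription factor PU.1, named after its values were seen, had 170 counts in doxorubicin rat 2, 33 to 69 in the other treated rats and 24 to 69 in controls. Cd79b, a B cell receptor chain named likewise, had 61 counts in rat 2, 22 to 33 in the other treated rats and 20 to 29 in controls. The part of leukocytes in the level of rat 2 was not tested.

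**Figure D5:**
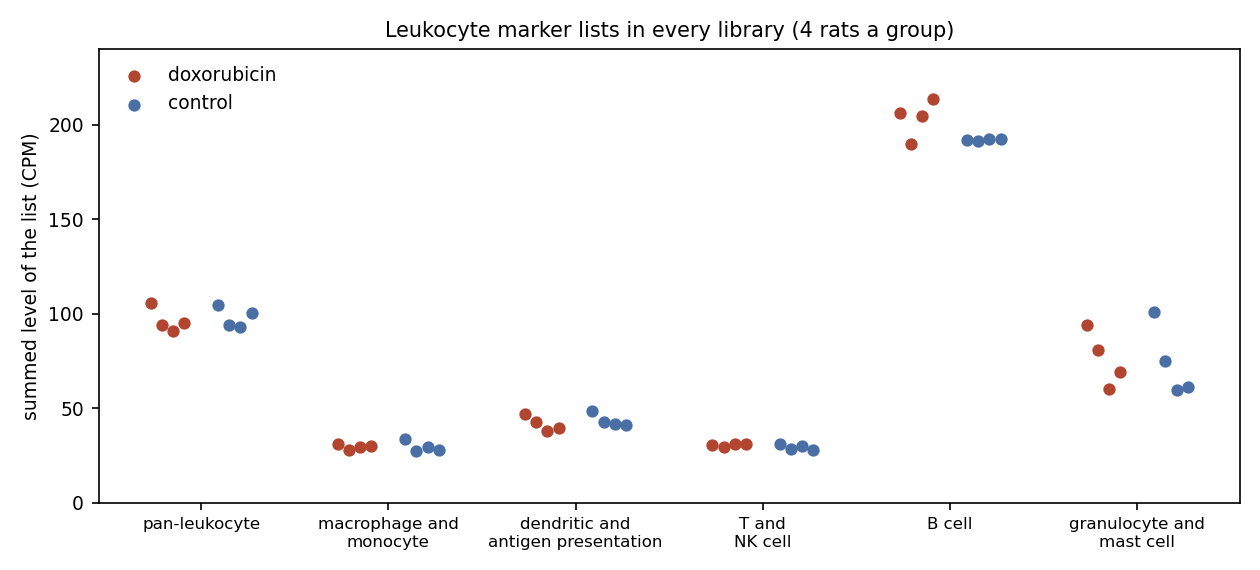
Summed CPM of 6 leukocyte marker lists in every library, doxorubicin (red) left of control (blue), 4 rats a group, on a linear axis from 0. The points of both groups overlap in each list. Each sum is set mainly by the listed genes of highest level, so it could hardly show a change in scarcer markers.

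The sums of the single lists overlapped too. The pan-leukocyte list summed to 90.7 to 105.6 CPM after doxorubicin and 93.2 to 104.9 CPM in controls, led by Ikzf1, Coro1a and Lcp1. Ikzf1, the Ikaros transcription factor of lymphocytes, stood at 23.8 ± 1.19 CPM after doxorubicin and 27.0 ± 1.20 CPM in controls (edgeR adjusted p = 0.422). The Ikzf1 libraries did not overlap between the groups. The macrophage and monocyte list summed to 28.1 to 31.2 CPM after doxorubicin and 27.4 to 33.98 CPM in controls, of which the mannose receptor gene Mrc1 made up 17.5 ± 0.87 CPM after doxorubicin and 17.9 ± 3.08 CPM in controls. Cd14 and Cx3cr1 had log2 fold changes of 0.26 ± 0.16 and -0.30 ± 0.15 (SE). The Cx3cr1 libraries did not overlap between the groups either (edgeR adjusted p = 0.793). The dendritic list, led by Batf3, Zbtb46 and Ciita, summed to 38.0 to 47.0 CPM after doxorubicin and 41.2 to 48.4 CPM in controls. The T and NK cell list, in which Cd247 and Lck were the most abundant, summed to 29.7 to 31.1 CPM after doxorubicin and 27.9 to 31.0 CPM in controls. The B cell list, led by Fcrla, Cd79a and Pou2af1, summed to 190.0 to 213.9 CPM after doxorubicin and 191.6 to 192.7 CPM in controls, and the granulocyte and mast cell list, led by Csf3r, Hdc and Cxcr2, to 60.2 to 94.2 CPM after doxorubicin and 59.8 to 100.9 CPM in controls.

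Summed levels of other testis cell lists overlapped as well. Sertoli genes, led by Inha, Clu and Aard, summed to 75.3 to 91.6 CPM after doxorubicin and 77.2 to 86.4 CPM in controls. Leydig genes, led by Star, Nr5a1 and Cyp17a1, summed to 5.32 to 11.4 CPM after doxorubicin and 7.98 to 9.99 CPM in controls. Peritubular and stromal genes, led by Col1a1, Col1a2 and Pdgfra, summed to 60.0 to 80.5 CPM after doxorubicin and 66.9 to 83.4 CPM in controls, and endothelial genes, led by Pecam1, Egfl7 and Flt1, to 115.0 to 130.2 CPM after doxorubicin and 101.8 to 121.9 CPM in controls. In these 4 lists 0 genes passed edgeR (1 higher and 2 lower at an unadjusted p under 0.05, 0 with DESeq2). The lists held 11, 7, 9 and 10 tested genes in that order. Among all tested genes, 0.106% passed edgeR higher, and 4.19% were higher and 2.56% lower at that unadjusted p. Of 9 erythroid genes tested, 1 passed: Slc4a1, the band 3 anion exchanger, rose to 7.48 ± 2.21 CPM after doxorubicin, against 3.09 ± 0.35 CPM in controls (SD, n = 4 each; edgeR adjusted p = 0.0339). Most of the erythroid list went the other way: 3 of the 9, Slc4a1 among them, had a positive log2 fold change and 6 a negative one, with a median of -0.10. The erythroid list summed to 236.8 to 259.5 CPM after doxorubicin and 249.5 to 262.6 CPM in controls. DESeq2 called 1 erythroid gene higher and 2 lower, beside 0.899% and 0.0622% of all genes it tested. The germ cell list gave 0 calls among 18 genes (2 lower at an unadjusted p under 0.05, 0 with DESeq2), with Dazl, Uchl1 and Ret the most abundant.

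The p53 target genes, a standard readout of DNA damage, are given for scale. Of 38 tested, 4 passed edgeR, all higher (Eda2r, Abcb1b, Aen and Ccng1), beside 0.106% of all tested genes. DESeq2 called 18 of them, all higher, beside 0.899% of the genes it tested, and the median log2 fold change was 0.39. The list summed to 2360, 1752, 1724 and 1812 CPM in doxorubicin rats 2, 3, 6 and 8, against 1398, 1369, 1321 and 1317 CPM in control rats 1, 4, 5 and 9, with rat 2 highest, as for the 4 genes. Eda2r, a death receptor family gene, stood at 16.1, 9.11, 10.99 and 11.2 CPM in doxorubicin rats 2, 3, 6 and 8, against 1.97, 2.13, 1.73 and 1.51 CPM in control rats 1, 4, 5 and 9.

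Genes next to each member were read in the RefSeq gene order of GRCr8, the nearest 3 tested genes on either side. Of these 24, 0 passed edgeR, with 4 higher and 1 lower before adjustment at 0.05. Over all tested genes, 0.106% passed edgeR higher and 0.00589% lower. Before adjustment, 4.19% of all tested genes were higher and 2.56% lower. DESeq2 called Tssc4, the tested gene nearest to Cd81 on one side, beside 0.899% of all its tested genes called higher. Tssc4, a spliceosome assembly factor in human, stood at 145.8, 108.8, 116.4 and 115.9 CPM in doxorubicin rats 2, 3, 6 and 8, against 91.9, 92.6, 87.6 and 92.9 CPM in control rats 1, 4, 5 and 9. The Tssc4 groups did not overlap (log2 fold change 0.42 ± 0.08, SE, edgeR adjusted p = 0.0929, DESeq2 adjusted p = 1.28e-04). Ascl2, a transcription factor gene and the nearest tested on the other side of Cd81, stood at 11.8 ± 1.98 CPM after doxorubicin and 8.97 ± 0.63 CPM in controls (SD, n = 4 each), also without overlap (log2 fold change 0.39 ± 0.11, SE, edgeR adjusted p = 0.318). In all, 3 of the 24 neighbours were higher without overlap and 0 lower, beside 2.77% and 1.95% of all tested genes. The 4 neighbours higher before adjustment were Tssc4, Ascl2 and Cdkn1c beside Cd81, and Poglut1 beside Cd80. Cdkn1c had a log2 fold change of 0.25 ± 0.09 and Poglut1 one of 0.08 ± 0.03 (SE, edgeR adjusted p = 0.578 and 0.632). The cause was not tested. Neu2 and Atg16l1 beside Inpp5d had log2 fold changes of 0.38 ± 0.19 and -0.02 ± 0.03, Timmdc1 and Adprh beside Cd80 had -0.04 ± 0.04 and -0.0001 ± 0.0382, and Sema4f and Dok1 beside M1ap had -0.13 ± 0.11 and 0.14 ± 0.12 (SE, edgeR adjusted p from 0.790 to 1.000).

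The genes most like each member across libraries, with group means removed, were sought among 13569 genes with a mean of at least 1 CPM. Inpp5d was followed most closely by Pmepa1 (a regulator of TGF-beta signalling), Capn5 (a calpain protease) and Eif2ak2 (the kinase PKR), with Pearson r of 0.99 over the 8 libraries and 0.97, 0.95 and 0.96 without rat 2. Cd80 was followed by Mrpl49 (a mitochondrial ribosomal protein), Kansl3 (a chromatin complex subunit) and Sesn2 (r of 0.98, 0.97 and 0.97), which came down to 0.87, 0.57 and 0.61 without rat 2. M1ap was followed by Git2, the nuclease subunit gene Eme1 and Nuggc (0.99, 0.98 and 0.97), and Cd81 by Cpsf1 (an mRNA 3′ end processing factor), Brdt (a bromodomain protein of the testis) and Ttll3 (0.98 each). None of the 12 passed edgeR between the groups. Sesn2, a stress-induced sestrin, came nearest at 72.1 ± 19.95 CPM after doxorubicin and 30.9 ± 1.82 CPM in controls (SD, n = 4 each). Its log2 fold change was 1.22 ± 0.18 (SE, edgeR adjusted p = 0.0801, DESeq2 adjusted p = 1.34e-06). With 8 libraries and so many genes, high values of r arise readily, and they are given as a description only.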

How the data were processed

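PolyA RNA of sorted germ cells from 4 doxorubicin and 4 control rats was sequenced, and groups were taken from the sample titles. The deposited table holds the authors' estimated counts per gene and library, not normalized, and 32.5% to 33.6% of values in a library were not whole (tolerance 1e-06), so they were rounded before testing. Per the submitters' processing notes, the tools were kallisto 0.48.0, DESeq2 1.40.2, featureCounts, Trimmomatic, fastp 0.23.2, MultiQC 1.12 and FastQC 0.11.9 on the build rn6, with no role or order stated. Neither the strand setting nor the treatment of ambiguous reads is known from the labels, so overlapping, antisense and copied genes are uncertain. Of 2356 rows with no symbol, 7 were named by Entrez identifier from RefSeq genes of GRCr8, which also gave gene order and promoters.

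After filterByExpr, which kept 16976 genes, and TMM scaling, the robust quasi-likelihood F test of edgeR 4.0.16 in R 4.3.3 was run with no covariate, with Benjamini-Hochberg adjustment over all genes kept and a threshold of 0.05. DESeq2 1.42.0 and limma 3.58.1 were alternatives, beside other scalings and filters, thinning, a block for rats 1 to 4 and 5 to 9, and each library left out. Standard errors are the log2 fold change over the square root of F. Likeness used log2 CPM with a prior count of 2. Every pair of libraries differed beyond sampling noise (the smallest chi-square over its degrees of freedom was 6.22).

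The 4 genes and all lists were chosen with earlier results of these data known, and the p53 consensus search was added after other motifs were seen. Of listed symbols, 9 were not matched, among them Mer3 and Hei10, which are other names of the listed and tested Hfm1 and Ccnb1ip1, and some named genes are not reported here. Named genes were the 4, a fixed set of relatives, up to 4 called genes of each list or else the 3 of highest level, the nearest neighbours, and the 3 most alike in pattern. Where levels of different genes are ranked or set in a ratio, they are in reads and not corrected for transcript length. No transcript lengths of the build were at hand. The edgeR p-values and the 95% intervals of log2 fold changes come from the same fit and both rest on the spread between 4 rats a group. The limit of 3 counts covers counting error only.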

Additional observations from a re-analysis of the deposited data

Results flagged for a closer look

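Of 246 groups of 4 libraries examined (the named genes, the list sums and the library measures), 24 had 1 library far from the other 3, where chance gives about 1 in 20 groups, or 12.3. Doxorubicin rat 2 was that library in 11 of them. The groups were no neutral set, since some genes were named for following 1 of the 4 genes across libraries. Groups that vary together need not keep the rate of 1 in 20. Among the 4 genes only Cd80 was concerned, at 18.6 CPM in rat 2 against 8.03 to 9.00 CPM in the other treated rats. Rat 2 was also above the other treated rats for Aen (125 CPM), Sesn2 (102), Slc4a1 (10.8), Dok1 (7.44), Kansl3 (150), Timmdc1 (40.9), Smc1b (205), Hdc (2.63) and Ctla4 (0.0346), and for the sum of the p53 target list, at 2360 CPM against 1720 to 1810. The Ctla4 value rests on only 2 counts in rat 2, fewer than the limit of 3 counts.

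In the other treated rats, rat 8 stood apart for Mtmr2 (97.0 CPM), Itgb1 (280), Ddx4 (398) and Atg16l1 (135), rat 6 for Icoslg (12.4), and rat 3 for Cx3cr1 (1.23) and Uchl1 (639). In controls, rat 1 stood apart for Itga6 (370 CPM), Hdc (2.94), Uchl1 (642) and the summed Cd81 partners (1250, against 1070 in each of the others), rat 9 for Col1a1 (25.3) and rat 5 for Nuggc (1.97).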

How the results depend on the processing

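The log2 fold changes of the 4 genes kept their direction under all 17 alternatives. They ran from 2.20 to 2.65 for Inpp5d, 1.89 to 2.40 for Cd80, 1.93 to 2.44 for M1ap and 0.79 to 1.04 for Cd81. The lowest value of each gene came without doxorubicin rat 2. Of the 4 genes, 4 were called, against 0 with limma-voom, 2 with no filter, and 0 to 4 when a library was left out. The number of genes called over the whole table, 19, also varied: 170 with DESeq2, 5 with limma-voom, 53 without robust fitting, 61 with the block for rat numbers, and 1 to 62 when a library was left out. The fewest, 1, came without doxorubicin rat 8 or control rat 5, and without control rats 4, 9 and 1 it was 2, 3 and 11, without doxorubicin rat 6 it was 11, and without doxorubicin rat 2 it was 62. Of the p53 target list, 4 genes were called, against 18 with DESeq2, 1 with limma-voom, 2 with no filter, 15 without robust fitting, 7 with the block, and 1 to 15 when a library was left out. In the cell marker lists, 1 gene was called, against 3 with DESeq2, 0 with limma-voom, and 0 to 2 when a library was left out. Pathway lists other than p53 targets gave 0 calls in every alternative. Co-variation of the gene pairs ranged, over libraries left out, from -0.25 to 0.87 for Inpp5d and Cd80, 0.075 to 0.88 for Inpp5d and M1ap, -0.0076 to 0.83 for Inpp5d and Cd81, -0.0234 to 0.91 for Cd80 and M1ap, -0.15 to 0.84 for Cd80 and Cd81, and -0.89 to 0.53 for M1ap and Cd81, the lowest without doxorubicin rat 2 in each case. Other scalings and prior counts kept the direction. The causes were not tested. No paired analysis was possible because the groups share no rat number.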

Other observations

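Of the 141 genes tested in the pathway lists other than p53 targets, 6 had all treated libraries above all controls and 3 below, beside 2.77% and 1.95% of all tested genes, and 0 passed edgeR over all genes (8 higher and 5 lower at an unadjusted p under 0.05, 0 with DESeq2). At that unadjusted p, 4.19% of all tested genes were higher and 2.56% lower. The genes without overlap are named after their values were seen. They are given as a description and not as a result about these pathways. Ocrl, a phosphoinositide phosphatase, stood at 3.41 CPM after doxorubicin and 2.53 CPM in controls (log2 fold change 0.44, edgeR adjusted p = 0.535). Ptpn6, which encodes the blood cell phosphatase SHP-1, stood at 13.3 CPM after doxorubicin and 10.9 CPM in controls (log2 fold change 0.28, edgeR adjusted p = 0.339). Foxo3, a transcription factor that Akt restrains, stood at 62.3 CPM after doxorubicin and 53.3 CPM in controls (log2 fold change 0.23, edgeR adjusted p = 0.322). The tetraspanin Cd151 stood at 57.8 CPM after doxorubicin and 48.6 CPM in controls (log2 fold change 0.25, edgeR adjusted p = 0.354), and Rnf212, a crossover factor, at 32.6 CPM after doxorubicin and 28.9 CPM in controls (log2 fold change 0.17, edgeR adjusted p = 0.358). The tetraspanin Tspan5 stood at 39.4 CPM after doxorubicin and 36.2 CPM in controls (log2 fold change 0.12, edgeR adjusted p = 0.716). On the lower side were Akt1, given above, the tetraspanin Tspan6 at 26.6 CPM after doxorubicin and 28.7 CPM in controls (log2 fold change -0.11, edgeR adjusted p = 0.670), and Prdm9, which sets the sites of meiotic breaks, at 1.51 CPM after doxorubicin and 2.02 CPM in controls (log2 fold change -0.41, edgeR adjusted p = 0.586).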
